A study of Mus musculus with 9 samples.

Results

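The matrix metalloproteinases (Mmp), the ADAMTS proteases with their ADAMTS-like relatives, and the tissue inhibitors of metalloproteinases (Timp) were followed in the epididymal fat pad, a visceral depot of male mice, by sequencing single nuclei. Members were taken by name: every gene of the deposited tables whose symbol begins with Mmp or Timp followed by a digit, or with Adamts, except Mmp12 and symbols ending in os or Rik. This gave 49 of the 32285 genes, and all 49 are annotated as protein coding. RNA was measured by droplet single-nucleus sequencing as UMIs, unique molecular identifiers that count captured RNA molecules. Members held 960264 of 408905640 UMIs over 9 libraries.

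All 9 libraries came from male C57BL/6J mice, and each held nuclei pooled from 5 animals. C, CC and CCC were lean controls on chow, aged 18, 26 and 39 weeks. H mice, aged 18 weeks, had 12 weeks of high-fat diet (HFD) behind them, and HH mice, aged 31 weeks, had 25. HC mice, aged 26 weeks, had 12 weeks of HFD and then 8 weeks of chow. HHC mice, aged 39 weeks, had 25 weeks of HFD and then 8 weeks of chow. CCH and HCH mice were both 30 weeks old and ended on 4 weeks of HFD, CCH after 26 weeks of chow and HCH after 12 weeks of HFD and 8 weeks of chow. By the study's methods C ate a low-fat chow, while CC, CCC and the weight-loss groups ended on a standard chow. The sample names carry 1 of 2 prefixes, shared by C, H, HH, CCH and HCH and by CC, CCC, HC and HHC. Age, chow and prefix therefore differ together between C and the other lean libraries and cannot be told apart. Of the 6 main comparisons HH against CC alone crosses the prefixes. Age also differed in CCH against C (30 and 18 weeks) and in HH against CC (31 and 26 weeks).

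Extracellular matrix is cut mainly by zinc proteases that are made as inactive precursors. Collagenases open fibrillar collagen, gelatinases degrade denatured and basement membrane collagen, stromelysins have broad matrix substrates, and membrane-type enzymes act at the cell surface. ADAMTS enzymes trim procollagen, cleave proteoglycans such as versican and aggrecan, or process microfibril proteins, and ADAMTS-like proteins resemble them without a protease domain. TIMPs bind the active site of these enzymes. In adipose tissue this system is known for its part in the matrix remodelling that goes with fat expansion.

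Libraries held 22599619 to 66615262 UMIs. Of 91687 barcodes, 73254 nuclei were kept after filters and doublet removal. Cell classes were gated by marker lists that hold no member, each nucleus needing at least 2 detected markers of its class and at least 2 times the number of any other class, which gave 48036 nuclei a class. In CC 59.4% of nuclei stayed without a class, and only 14 nuclei passed as macrophages there. Nuclei of CC that passed as progenitors also held 18.0 adipocyte-marker UMIs per 10000, against 6.97 in C and 1.96 in H. A second gate, scaled for depth and chosen after the data were seen, gave CC 265 macrophage nuclei and is used where the first left fewer than 50. Pairs of libraries shared 8 to 55 barcodes, at most 0.493% of the smaller library.

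There was 1 library per group, so no difference between diet groups was tested. Levels are CPM, the UMIs of a gene scaled to a common total of UMIs in a library or class, and differences are log2 ratios of CPM. Their 95% intervals cover counting error only and not the spread between mice or pools. A ratio is called higher or lower when it reached 2-fold with at least 20 UMIs in the 2 libraries together. UMI counts are not set against gene length, so levels are compared between libraries and cell classes, never between genes.

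The number of UMIs behind each member sets the precision of its values and, for the reason just given, is no comparison of abundance. Adamts5, a proteoglycan-cleaving enzyme, held 213385 UMIs, and Adamts12 held 127855. Adamtsl1 held 102780, Timp2 82032, the procollagen protease Adamts2 62260 and Timp3 60926. The 3 collagenases Mmp1b, Mmp8 and Mmp13 each held 26 to 306 UMIs. In all, 37 members held at least 500 UMIs and 12 held fewer, 6 of them under 100. These low members were Mmp20, Mmp1b, Mmp10, Adamts13, Mmp21, Mmp8, Mmp25, Adamts8, Mmp13, Adamts4, Mmp24 and Mmp17. On chromosome 9 (GRCm38, GENCODE vM21) 8 MMP genes lie in a cluster between bases 7272514 and 7699585, among them Mmp13 (7272514-7283331, + strand), Mmp3 (7445822-7455975, +), Mmp10 (7502352-7510240, +) and Mmp27 (7571396-7581885). Timp1 lies on chromosome X (20870166-20874735, +) and Mmp2 on chromosome 8 (92827291-92853420, +).

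The promoters of Mmp3, Mmp10, Mmp13 and Timp1 are shown because these were the members with the 4 highest ratios in the whole H library against C. Each run holds 250 bases before the RefSeq gene start and 50 after it, on the + strand. Capitals mark TGANTCA, the only pattern searched here for AP-1, the dimer of Fos and Jun proteins, with N as any base and on both strands.
Mmp3 (GRCm38.p6, chr9:7445572-7445871): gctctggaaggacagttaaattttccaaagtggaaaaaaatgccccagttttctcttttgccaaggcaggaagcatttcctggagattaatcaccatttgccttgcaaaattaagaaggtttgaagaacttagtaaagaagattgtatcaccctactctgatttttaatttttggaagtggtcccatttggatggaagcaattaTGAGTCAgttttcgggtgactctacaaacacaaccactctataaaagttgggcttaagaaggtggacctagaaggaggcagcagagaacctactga
Mmp10 (GRCm38.p6, chr9:7502092-7502391): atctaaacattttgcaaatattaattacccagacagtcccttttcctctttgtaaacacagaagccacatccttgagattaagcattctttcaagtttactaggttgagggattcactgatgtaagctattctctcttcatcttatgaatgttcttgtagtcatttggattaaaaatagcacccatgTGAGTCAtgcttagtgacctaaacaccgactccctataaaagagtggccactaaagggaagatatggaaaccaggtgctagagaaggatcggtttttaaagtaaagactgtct
Mmp13 (GRCm38.p6, chr9:7272264-7272563): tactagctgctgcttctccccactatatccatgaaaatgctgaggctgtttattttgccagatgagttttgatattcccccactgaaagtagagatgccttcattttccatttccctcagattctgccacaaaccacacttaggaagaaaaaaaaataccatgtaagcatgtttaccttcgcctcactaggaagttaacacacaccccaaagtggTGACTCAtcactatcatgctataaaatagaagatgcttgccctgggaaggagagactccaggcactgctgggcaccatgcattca
Timp1 (GRCm38.p6, chrX:20869916-20870215): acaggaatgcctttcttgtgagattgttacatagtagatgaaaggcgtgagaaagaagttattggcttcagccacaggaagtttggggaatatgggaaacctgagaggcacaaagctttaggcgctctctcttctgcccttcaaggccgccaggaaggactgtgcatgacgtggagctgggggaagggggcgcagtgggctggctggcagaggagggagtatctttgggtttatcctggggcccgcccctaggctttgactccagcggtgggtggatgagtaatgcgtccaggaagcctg
The match began 46 bases before the start in Mmp3, 63 in Mmp10 and 35 in Mmp13, and this pattern was not in the Timp1 window. Variants of the pattern were not searched, so its absence does not tell whether AP-1 can bind the Timp1 window. RefSeq promoters matched 34 members and gave 36 windows. The AP-1 letters were in 6 of the 36 (16.7%), all 6 on chromosome 9, against 7.81% of 32851 promoters of the same length. The PEA3 letters AGGAAG were in 38.9% of the members' windows and 35.4% of all, and TATAAA in 27.8% and 13.6%. A match is a description of these letters and not evidence of a binding site.

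The families were divided between cell classes. edgeR's quasi-likelihood test, with each library as a block, compared each of 6 classes with the mean of the other classes over 53 sums of UMIs, 28 members passing the filter on low counts among 11994 genes. In progenitor-gated nuclei, the fibroblast-like cells that include adipocyte precursors, 17 members were higher and 3 lower, against 10.2% and 6.04% of all genes tested. Adamts16 stood 6.55 ± 0.29 (SE) higher on the log2 scale (edgeR adjusted p = 9.6e-23), and its UMIs over all gated nuclei were 97.3% in progenitors. Adamtsl3, at 3.66 ± 0.18, Adamts12, at 3.19 ± 0.19, and the gelatinase Mmp2, at 2.87 ± 0.16 (edgeR adjusted p = 8.9e-21), followed. Adamts2, which trims fibrillar procollagen, was 2.72 ± 0.11 higher. Mmp11, Adamts14, Adamts15, Mmp23, Adamts5, Timp1, Mmp14, Adamts3, Adamts6, Adamtsl1, Adamtsl4 and Mmp16 were 1.16 to 2.62 higher. The progenitor set thus held gelatinase, stromelysin, membrane-type and procollagen members together with 1 inhibitor, Timp1, at 1.99 ± 0.41 (edgeR adjusted p = 8.9e-05). The Timp1 level of H progenitors exceeded the background given below from lymphocytes, and those of HH and HCH progenitors did not.

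**Figure D1:**
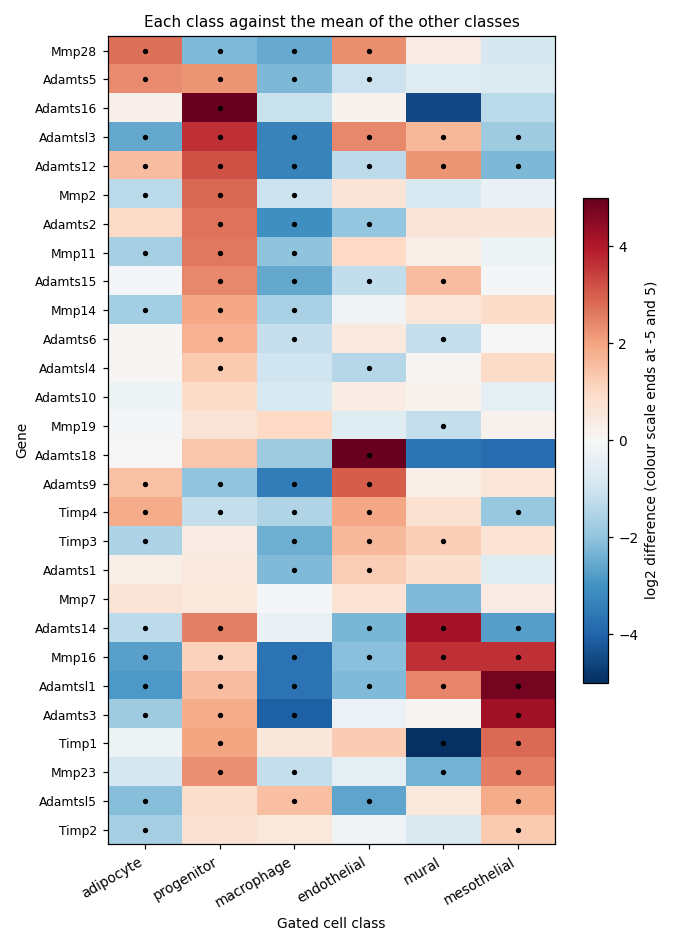
Log2 difference of each member (rows, 28 genes tested) in each gated class (columns) against the mean of the other classes, from edgeR, with dots where the adjusted p passed 0.05 and the difference 2-fold. The colour scale ends at 5 in both directions. Progenitors held 17 dots for higher members, macrophages 18 for lower ones, and Adamts18 stood out in endothelial nuclei at 7.84.

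Adipocyte-gated nuclei had 5 higher and 11 lower members, against 14.3% and 10.8% of all genes. The higher members were Mmp28 (epilysin) at 2.73 ± 0.18, Adamts5 at 2.38 ± 0.16, the inhibitor Timp4 at 1.87 ± 0.19, Adamts12 at 1.54 ± 0.21 and Adamts9 at 1.45 ± 0.20. Adamts5 and Adamts12 were thus higher in both adipocytes and progenitors, while Mmp28, Adamts9 and Timp4 were the 3 members lower in progenitors. Macrophage-gated nuclei had 1 higher member, Adamtsl5 at 1.51 ± 0.15, and 18 lower, against 14.2% and 19.1%. Among the 18 were Adamts3 at -4.09 ± 0.30, Adamtsl1 at -3.68 ± 0.33, Mmp16 at -3.68 ± 0.40 and Adamts9 at -3.47 ± 0.30. Mmp19 was 0.99 ± 0.16 higher there (edgeR adjusted p = 2.2e-07), just short of 2-fold, and Timp2 was on neither list.

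In endothelial, mesothelial and mural nuclei, several of the higher members were also higher in progenitors or adipocytes. In endothelial nuclei 7 members were higher and 9 lower (10.9% and 9.15% of all genes). Adamts18 was 7.84 ± 0.41 higher (edgeR adjusted p = 4.3e-18), Adamts9 3.04 ± 0.20, Adamtsl3 2.39 ± 0.22, Mmp28 2.33 ± 0.21, Timp4 1.95 ± 0.21, the matrix-bound inhibitor Timp3 1.64 ± 0.17 and Adamts1 1.24 ± 0.21. In mesothelial nuclei, which line the surface of the depot, 7 were higher and 4 lower (11.3% and 8.09%). Adamtsl1 was 4.80 ± 0.21 higher there, Adamts3 4.19 ± 0.18, Mmp16 3.66 ± 0.32, Timp1 2.82 ± 0.44, Mmp23 2.57 ± 0.18, Adamtsl5 1.87 ± 0.18 and Timp2 1.30 ± 0.13. Mural nuclei (pericytes and smooth muscle) had 7 higher and 4 lower (7.7% and 7.97%), led by Adamts14 at 4.16 ± 0.38 and Mmp16 at 3.67 ± 0.40. The mural sums rest on few nuclei, 118 in C, 101 in HC, none in CC and 9 to 16 in the other 6 libraries. Mmp16 had 50 UMIs in the mural nuclei of C, 52 in those of HC and none in the other 6 libraries.

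Across whole libraries, high-fat feeding went with higher Mmp2, Mmp3, Mmp19, Mmp27, Mmp11 and Timp1 and with lower Timp4, Adamts9 and Adamts20. Adamts12 was called lower in HH against CC, whereas H against C was -0.96, short of 2-fold. In bulk sums of this kind, fewer cells of a type and less RNA per cell cannot be told apart. Against C, 13 of 44 tested members were called higher in H and 9 lower, where 27.6% and 13.1% of all genes were called. Against CC, 14 of 44 were higher in HH and 12 lower, with 30.8% and 11.6% of all genes. The share of higher members was near the background in both, at 29.5% and 31.8%, and the share of lower members, 20.5% and 27.3%, above it, with a median log2 ratio of 0.21 for members and 0.27 for all genes in H, and 0.13 and 0.37 in HH. With C, of the same prefix, as the control, 14 of 44 were higher in HH and 7 lower (30.3% and 12.9%). The lowest ratios were those of Mmp16 (-2.13), Timp4, Adamts17 (-1.71) and Mmp9 (-1.70) in H, and of Adamts20 (-3.02), Timp4, Mmp15 (-2.82) and Adamts12 (-1.82) in HH. Both HFD libraries lay above all 3 lean libraries for 16 of 46 members, against 40.7% of all genes, and below them for 10, against 20.4%.

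Mmp3, a stromelysin that also activates other MMP precursors, was at 0.607 CPM for C, 0.853 for CC and 0.284 for CCC. It was at 12.0 for H, 19.8 for HH, 1.79 for HC, 5.83 for HHC, 1.01 for CCH and 4.17 for HCH. The HFD libraries and those with an earlier HFD all lay above the lean range, and the ratio was 4.30 (3.76 to 4.89) for H against C and 4.36 (3.22 to 5.81) for HHC against CCC. HC against CC was 1.07 (0.36 to 1.82) and HCH against CCH 2.05 (1.63 to 2.49). The Mmp3 UMIs of H were spread over 217 barcodes with at most 33 in 1 of them, whereas 26 of the 59 in CCH came from 1 barcode.

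Timp1, a secreted inhibitor of most MMPs, was at 1.13 CPM for C, 0.853 for CC and 0.474 for CCC, and at 23.8 for H and 18.1 for HH. It was at 0.98 for HC and 1.51 for HHC, and at 1.47 for CCH and 10.3 for HCH. High Timp1 was thus seen in the 3 libraries H, HH and HCH, with HC inside the lean range and HHC just above it. The ratio of H to C was 4.39 (4.00 to 4.82), of HC to CC 0.20 (-0.62 to 1.03), of HHC to CCC 1.67 (0.72 to 2.78) and of HCH to CCH 2.81 (2.48 to 3.15).

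**Figure D2:**
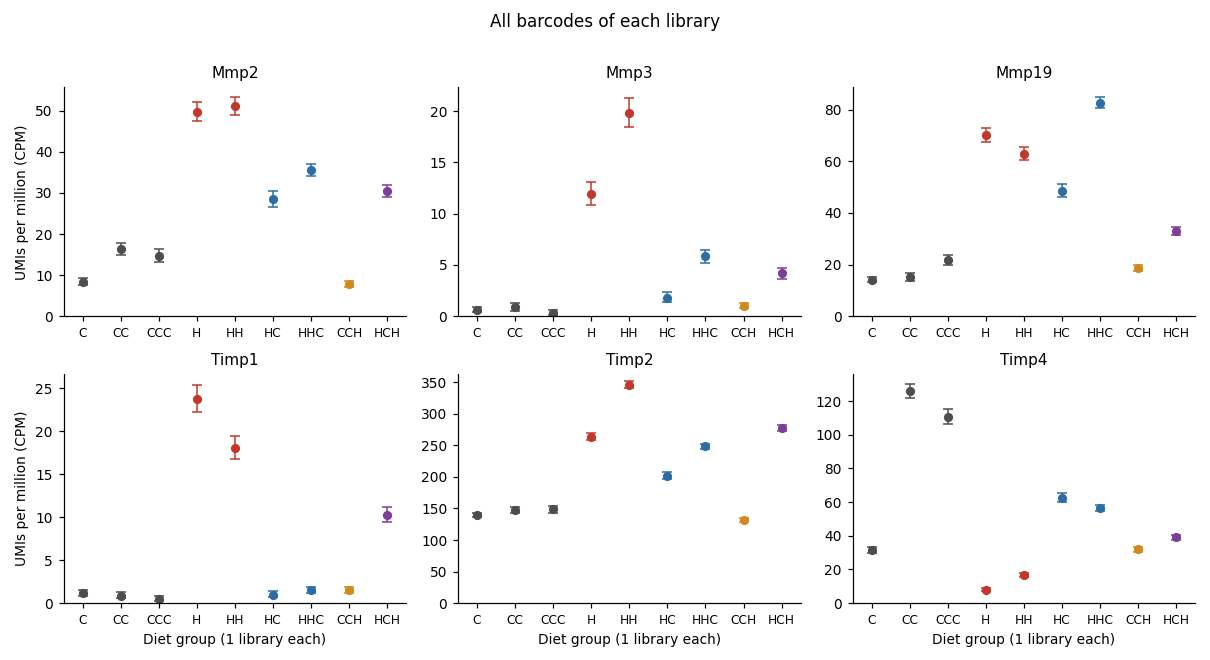
CPM over all barcodes (vertical axes, each from 0) of 6 members in the 9 libraries (horizontal axes, 1 library per diet group), with bars for exact Poisson 95% intervals. Timp1 was at 10.3 to 23.8 in H, HH and HCH and at most 1.51 elsewhere, whereas Mmp2 and Mmp19 stayed above the lean libraries in HC and HHC.

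The gelatinase Mmp2 stood at 8.42, 16.2 and 14.7 CPM for C, CC and CCC, at 49.8 and 51.1 for H and HH, and at 28.6 and 35.6 for HC and HHC. CCH was at 7.85 and HCH at 30.5, a ratio of 1.96 (1.81 to 2.11). Mmp19, a secreted enzyme acting on basement membrane, was at 14.1 to 21.6 CPM in the lean libraries, 70.1 for H, 62.8 for HH, 48.5 for HC, 82.7 for HHC, 18.7 for CCH and 32.9 for HCH. Mmp27 was at 1.30 to 1.51 in the lean libraries, 8.66 for H, 13.2 for HH, 6.49 for HC and 10.4 for HHC. For both genes the 4 libraries on HFD for at least 12 weeks or after weight loss lay above every lean library. Mmp13, a collagenase, had no UMI in C, 2 for CC and 4 for CCC, against 98 for H, 51 for HH, 19 for HC and 76 for HHC. Mmp10 had 33 UMIs in H and 1 in C, of which 22 came from 1 barcode, so its ratio of 5.43 (2.85 to 10.78) rests largely on that barcode.

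Members with lower whole-library values in HFD included several that adipocytes or endothelial cells carry. Timp4 was at 31.4, 126 and 111 CPM in C, CC and CCC and at 7.95 and 16.8 in H and HH, ratios of -1.98 (-2.17 to -1.80) for H and -2.90 (-3.02 to -2.78) for HH. The 10 adipocyte markers summed to 5578 to 6408 CPM in the lean libraries and 2049 to 2957 in H and HH. Endothelial markers, whose class also held Timp4 and Adamts9 higher, went from 636 to 1486 in the lean libraries to 289 to 390.0 in H and HH, and mural markers from 269.6 to 606 to 85.4 to 111. Against C, of its own prefix, HH was at -0.90 (-1.04 to -0.77) for Timp4, short of 2-fold. Adamts9 was at 139 to 183 CPM in the lean libraries, 56.6 in H and 73.4 in HH. Adamts20 was at 16.0 to 30.5 in the lean libraries, 7.73 for H, 2.25 for HH, 1.28 for HC and 3.83 for HHC. Mmp9, the other gelatinase, was at 1.70 to 2.66 in the lean libraries and at 0.521 in H and 1.10 in HH. Mmp15, a membrane-type enzyme, was at 2.95, 10.6 and 6.78 in C, CC and CCC and at 2.25 and 1.50 in H and HH, and HH against C was -0.98 (-1.44 to -0.53), short of 2-fold. Adamtsl2, which binds fibrillin, was at 1.55 to 3.60 in the lean libraries and at 0.828 to 1.32 in H, HH, HC and HHC.

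After weight loss 8 of 43 members were higher in HC than CC and 6 lower (11.6% and 11.8% of all genes), and 7 of 44 were higher in HHC than CCC and 9 lower (15.3% and 13.1%). The highest ratios of HC to CC were those of Mmp13 (3.23), Mmp27 (2.32), the membrane-type Mmp17 (2.16, 113 UMIs against 25) and Mmp19 (1.68). In HHC against CCC they were those of Mmp3, Mmp27 (2.82), Mmp13 (2.73) and Mmp19 (1.94). The lowest were Mmp7 (-8.95), Adamts20 (-3.83), Adamtsl2 (-1.78) and Adamts19 (-1.69) in HC, and Mmp7 (-3.33), Adamts20 (-2.99), Adamtsl2 (-2.12) and Adamts8 (-1.68) in HHC. Mmp7, Adamts20 and Adamtsl2 were thus among the lowest in both. Epithelial markers summed to 78.7 to 158 CPM in the lean libraries, 36.6 in H, 16.5 in HH, 199 in HC and 42.7 in HHC. The part of epithelial nuclei in the whole-library values of Mmp7 and Adamts20 was not tested. HC and HHC both lay above the lean libraries for 12 of 46 members, against 18.3% of all genes, and below for 6, against 19.6%. The 12 were Mmp2, Mmp3, Mmp11, Mmp13, Mmp19, Mmp21, Mmp27, Adamts13, Adamts14, Adamtsl3, Adamtsl5 and Timp2. Of these, Adamts13, Mmp13 and Mmp21 are low-count members. Timp2, an inhibitor that also takes part in activating Mmp2, was at 140 to 149 CPM in the lean libraries, 264 for H, 346 for HH, 202 for HC and 249 for HHC. Adamtsl5 was at 36.7 to 40.1, then 110, 98.2, 58.8 and 78.6 in the same order, and Adamts14 at 8.87 to 10.7, then 18.0, 12.0, 17.6 and 15.8. Macrophage markers summed to 758 to 886 CPM in the lean libraries, 2636 to 2907 in H and HH and 1379 to 2622 in HC and HHC, and the part of cell shares in the levels of macrophage-expressed members is addressed by the gated values below.

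With 4 weeks of HFD, 10 of 43 members were higher in HCH than in CCH and 1, Adamts19, lower, against 16.4% and 5.49% of all genes. The 4 highest ratios were those of Timp1, Mmp13 (2.08, 1.11 to 3.18), Mmp3 and Mmp2. In CCH against C, age and earlier chow differed along with HFD and cannot be told apart from it. That comparison gave 3 higher members and 5 lower of 42 (6.17% and 5.85%). The higher ones were Adamts5 at 2.41 (2.37 to 2.44), Adamts16 at 1.72 (1.50 to 1.94) and Mmp28 at 1.17 (1.09 to 1.25), the last of which was -0.23 when only the kept nuclei were summed. Adamts15 at -1.77, Mmp9 at -1.73, Adamts18 at -1.40 and Adamts8 at -1.38 led the lower ones. Adamts5 also differed among lean libraries, at 157, 462 and 1084 CPM for C, CC and CCC, and C and CCC differed more than any of the 6 diet comparisons of this gene did. With CC as the control in place of C, 14 members were called in CCH instead of 8.

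Within progenitor-gated nuclei (159 to 3316 per library) 12 of 35 members were higher in H than C and 5 lower, against 20.9% and 7.52% of all genes. HH against CC gave 10 and 4 of 34 (23.6% and 8.27%). Here the share of higher members lay above the background in H against C and close to it in HH against CC. The share of lower members, 14.3% in H against C and 11.8% in HH against CC, likewise lay above the background in the former and close to it in the latter. Mmp3 was at 2.86 CPM for C, at 0 for CC (0 UMIs in 159 nuclei) and at 0.575 for CCC (1 UMI), against 54.1 for H and 65.7 for HH. It was at 6.47 for HC, 15.4 for HHC, 6.61 for CCH and 11.5 for HCH. The ratio was 4.24 (3.52 to 5.07) for H against C, at least 3.38 for HH against CC, taken against a floor of 3 counts, and 4.74 (2.23 to 10.06) for HHC against the 1 UMI of CCC.

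The comparison of HCH with CCH for Mmp3 rested on 1 nucleus of CCH, which held 26 of the 45 progenitor UMIs. Without it CCH was at 2.79 CPM, near the 2.86 of C. HCH against CCH was 0.80 (0.27 to 1.35) with this nucleus and 2.04 (1.32 to 2.84) without it, and CCH against C was 1.21 (0.36 to 2.13) and -0.036 (-1.07 to 1.02). The depth-scaled gate, which held 12 Mmp3 UMIs of CCH and at most 8 in 1 nucleus, gave 2.46 (1.56 to 3.48) and -0.76.

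Timp1 in progenitors was at 3.22, 0 and 1.15 CPM for C, CC and CCC, at 47.4 for H and 28.3 for HH, at 1.41 for HC and 2.11 for HHC, and at 3.82 for CCH and 18.2 for HCH. H, HH and HCH were thus again the highest, although the HH and HCH values did not exceed the background given below from lymphocytes. HCH against CCH was 2.25 (1.64 to 2.91), and H against C 3.88 (3.19 to 4.66). Mmp2 was at 38.9 to 68.5 CPM in the lean libraries, 180 for H, 167 for HH, 101 for HC, 126 for HHC, 34.7 for CCH and 99.4 for HCH. All libraries with 12 or more weeks of HFD in their history lay above the lean range for Mmp2, with HHC against CCC at 0.87 (0.60 to 1.16), short of 2-fold, and HCH against CCH at 1.52 (1.31 to 1.74).

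Mmp11, a stromelysin with little activity on matrix itself, was at 6.80 to 23.0 CPM in lean progenitors, 67.7 for H, 77.2 for HH, 22.5 for HC, 40.4 for HHC, 11.6 for CCH and 48.7 for HCH. HC lay inside the lean range and HHC above it. Its ratio was 3.31 (2.83 to 3.84) for H against C and 2.07 (1.71 to 2.44) for HCH against CCH. Mmp19 was at 16.8 to 35.1 in lean progenitors, 59.5 for H, 72.6 for HH, 41.6 for HC and 70.4 for HHC. Adamts1, which cleaves versican, was at 26.1 to 40.3 in lean progenitors, 85.1 in H and 69.0 in HH. Mmp23 was at 72.7 for C, 21.0 for CC and 36.8 for CCC, 123 for H, 136 for HH, 14.6 for HC and 42.1 for HHC. The 4 libraries of the CC prefix were the 4 lowest for Mmp23, so HH against CC (2.70, 1.81 to 3.76) crossed the prefixes, and HH against C was 0.91 (0.74 to 1.08).

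**Figure D3:**
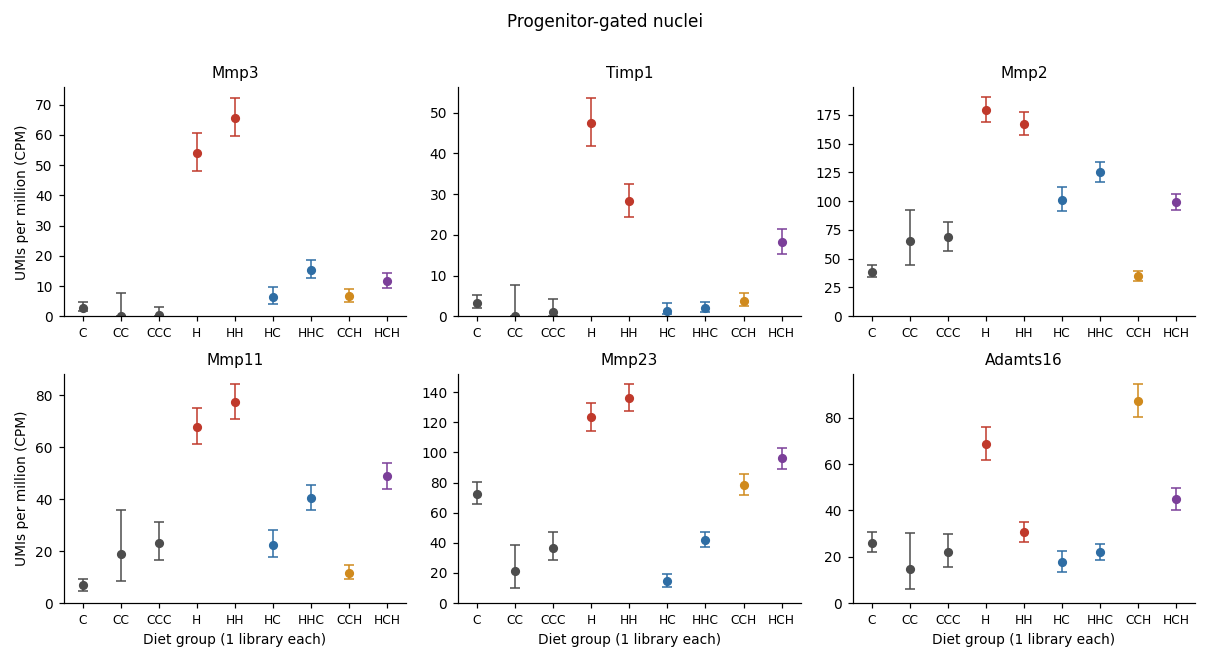
CPM of 6 members in progenitor-gated nuclei (vertical axes, each from 0) of the 9 libraries (horizontal axes), with exact Poisson 95% intervals. Mmp3, Timp1, Mmp2 and Mmp11 were highest in H and HH, while Adamts16 was highest in CCH at 87.2.

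Fewer members were lower in HFD progenitors. Mmp16, a membrane-type enzyme, was at 37.8 CPM in C and 6.70 in H (-2.50, -3.04 to -1.99), with CC at 14.7, CCC at 15.0 and HH at 8.92. Timp3 was at 243 to 372 in the lean libraries, 110 in H and 214 in HH. Adamts19 was at 37.8 for C, 8.40 for CC, 16.7 for CCC and 15.6 for H, and CCH, at 48.7, exceeded HCH, at 17.9, with a ratio of -1.44 (-1.74 to -1.15) for HCH against CCH. For HH against CC the members called lower were Timp4 (-3.34), Mmp28 (-3.24), Adamts9 (-1.61) and Adamts12 (-1.04). All 4 are genes that adipocytes carried above the other classes, and the CC nuclei were those with the most adipocyte-marker UMIs, whose part in these ratios was not tested.

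After weight loss fewer members were called in progenitors. HC against CC gave 3 of 28 higher and 1 lower (10.1% and 7.4% of all genes), namely Mmp27 on 36 UMIs against 1, Mmp19 at 1.31 (0.29 to 2.55), Adamts15 at 1.02 (0.35 to 1.77) and, lower, Timp4. HHC against CCC gave 5 of 33 higher and 3 lower (10.5% and 6.47%), with Mmp3 the highest and Mmp7 (-3.31), Adamts20 (-2.79) and Adamts19 (-1.43) the lower ones. The share called higher in HC was near the background, and the totals of 4 and 8 became 7 for HC against CC with no upper limit on genes and 3 to 5 for HHC against CCC in 3 other settings. HCH against CCH gave 4 of 35 higher, Timp1, Mmp11, Mmp2 and Timp4, and 2 lower (13.4% and 1.82%). CCH against C gave 3 of 35 higher and none lower (3.24% and 4.87%), Adamts16 at 1.75 (1.48 to 2.02), Mmp3, whose call was lost without 1 nucleus, and Adamts5 at 1.05 (0.98 to 1.11). With CC as the control 6 of 32 were higher in CCH and 3 lower (9.89% and 10.1%).

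Progenitors were split further by marker lists into FIP, fibro-inflammatory progenitors with Dpp4 and Pi16, and committed preadipocytes with Pparg. FIP were 18.2% of progenitor-gated nuclei in HC, 26.7% to 47.5% in C, CC, CCC, H, HH, HHC and HCH and 61.3% in CCH, and committed nuclei 25.2% to 60.0%, so values over all progenitors mix the kinds in different shares. Over 18 sums, with 29 members among 11902 genes, edgeR found 4 members higher in FIP and 2 lower, against 2.02% and 1.6% of all genes. Adamts16 was 6.68 ± 0.26 higher in FIP (edgeR adjusted p = 5.6e-13), followed by Adamts19 at 1.91 ± 0.21, Adamts6 at 1.61 ± 0.12 and Adamtsl4 at 1.33 ± 0.08. Mmp3 was 1.88 ± 0.32 lower in FIP on the log2 scale (edgeR adjusted p = 0.00024), and Adamts15 1.14 ± 0.08 lower. Adamts16 was at 43.6 to 192 CPM in FIP and at 0 to 2.8 in committed nuclei, with no overlap. Timp1 did not pass the filter on low counts for this test.

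The committed nuclei held Mmp3 at 72.5 CPM for H and 95.9 for HH, at 0 to 5.6 in the lean libraries, at 7.5 for HC and 24.5 for HHC. In FIP the same libraries were at 16.1 and 32.6, at 0 to 0.4, at 0 and at 4.2, of which H and HHC did not exceed the background given below. Adamts19 was lower in HCH than CCH within both kinds, at -1.19 (-1.55 to -0.85) in FIP and -1.05 (-1.82 to -0.29) in committed nuclei. After the last 4 weeks of HFD, Mmp3 in FIP was at 0.7 in CCH and 11.4 in HCH, and in committed nuclei at 24.1 and 10.1. The committed value of CCH holds 42 UMIs, 26 of them from the nucleus named above, and without it CCH was at 9.20 and HCH against CCH at 0.13 (-0.78 to 1.10). Timp1 was at 13.2 in HCH and 3.7 in CCH in FIP and at 23.3 and 3.4 in committed nuclei, and the HCH values are within the background given below.

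In macrophage-gated nuclei Mmp19 and Mmp27 were higher in H, HH, HC and HHC than in the lean libraries. Mmp19 was at 23.8 CPM for C and 25.9 for CCC, at 90.4 for H and 81.4 for HH, and at 89.7 for HC and 97.8 for HHC. CCH was at 23.6 and HCH at 36.2. The ratio was 1.93 (1.53 to 2.35) for H against C, 1.92 (1.10 to 2.88) for HHC against CCC and 0.62 (0.27 to 0.98) for HCH against CCH. With the depth-scaled gate, CC stood at 21.4, and HC against CC was 1.87 (1.16 to 2.65) and HH against CC 1.79 (1.11 to 2.56). The 4 libraries H, HH, HC and HHC did not overlap with the lean ones under either gate.

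Mmp27 had 1 UMI in lean macrophages of C (0.449 CPM) and none in CCC, against 10.3 CPM for H, 22.0 for HH, 19.3 for HC, 20.4 for HHC, 1.07 for CCH and 5.15 for HCH. Against C, H had 141 UMIs to 1, a ratio of 4.52 (2.02 to 9.83), although the H level did not exceed the background given below from lymphocytes. With the depth-scaled gate the lean counts of CC and CCC were 0, and the ratio was at least 2.15 for HC against CC, at least 2.54 for HHC against CCC and at least 2.70 for HH against CC. The whole-library level of Mmp27 in lean tissue, 1.30 to 1.51 CPM, came with 2.1 to 4.60 CPM in lean progenitors.

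These 2 genes differed in how they followed macrophage kind. Macrophages were split into LAM, lipid-associated macrophages with Trem2 and Gpnmb, and PVM, perivascular macrophages with Lyve1 and Cd163. LAM made up 3.57% to 5.63% of macrophage-gated nuclei in C, CCC and CCH, and 65.1% to 90.2% in H, HH, HC, HHC and HCH. Over 14 sums, with 18 members among 10798 genes, edgeR found Mmp19 1.43 ± 0.16 higher in LAM than PVM (edgeR adjusted p = 1.4e-07), the only member higher, and Adamtsl4 (-1.12 ± 0.26) and Adamts12 (-1.11 ± 0.26) lower, where 5.39% and 5.01% of all genes were higher and lower. Mmp27 differed by -0.85 ± 0.26 (edgeR adjusted p = 0.0168), short of 2-fold.

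Within LAM, Mmp19 was at 102 CPM (52.5 to 178) in the 31 nuclei of C, 88.9 (55.1 to 136) in the 61 of CCH, 96.0 for H, 89.9 for HH, 109 for HC and 104 for HHC, with HCH lowest at 45.2 (39.7 to 51.3). The intervals of the libraries other than HCH overlapped, those of C and CCH being wide. HCH against CCH was -0.98 (-1.62 to -0.26), short of 2-fold. With the depth-scaled gate this ratio was 0.69 (-0.39 to 2.03), with HCH at 42.1 CPM and CCH at 26.1 on 7 UMIs. The place of HCH as the lowest in LAM, and the sign of this ratio, thus depend on the gate. Within PVM, Mmp19 was at 16.2 for C, 22.8 for CCC, 36.4 for H, 33.2 for HH, 29.0 for HC, 48.4 for HHC, 17.3 for CCH and 22.0 for HCH. Mmp27 in PVM was at 0 for C (0 to 1.99) and CCC, 24.9 for H (16.0 to 37.1), 39.0 for HH, 32.2 for HC (15.5 to 59.3), 31.5 for HHC (16.8 to 53.8), 0.353 for CCH and 3.22 for HCH. The PVM of H, HH, HC and HHC thus lay above those of C, CCC, CCH and HCH for Mmp27, as the whole class did.

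**Figure D4:**
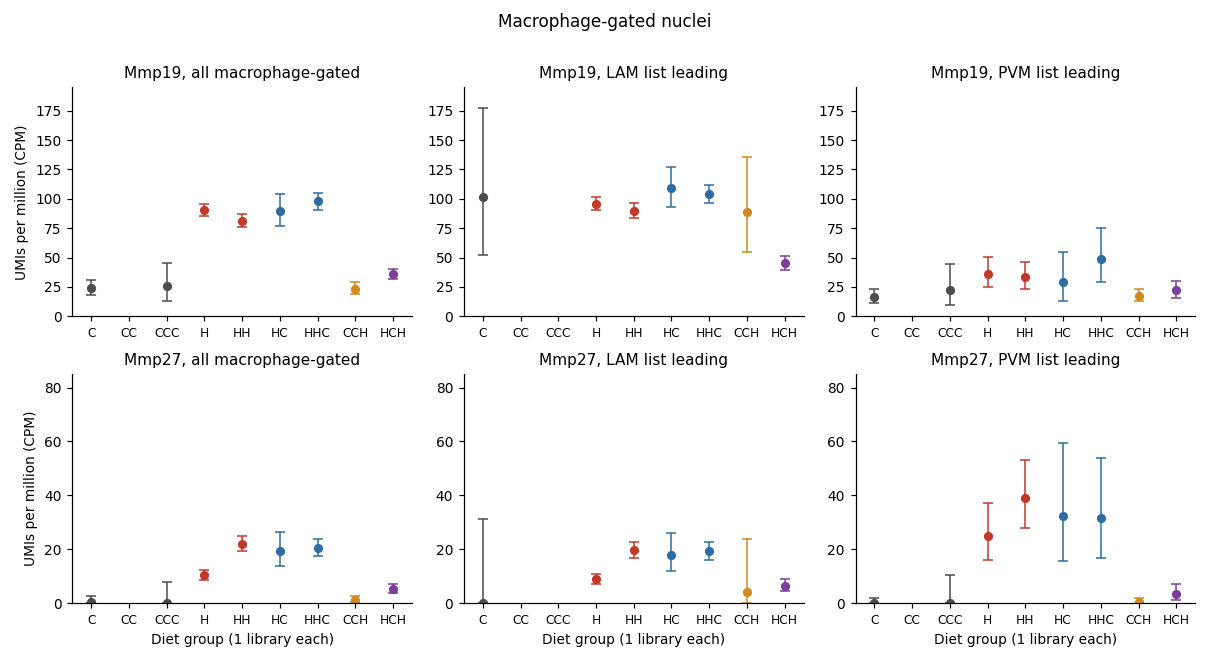
CPM of Mmp19 (top row) and Mmp27 (bottom row) in all macrophage-gated nuclei, in LAM and in PVM (columns from left) of each library (horizontal axes, only where at least 20 nuclei were present), with exact Poisson 95% intervals. In LAM, Mmp19 was at 88.9 to 109 in 6 libraries and at 45.2 in HCH, and in PVM Mmp27 was at 24.9 to 39.0 in H, HH, HC and HHC.

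The other members in macrophages were called as follows. H against C gave 8 higher and 9 lower of 29 (27.7% and 11.6% of all genes), led by Timp1 (15.5 CPM, 212 UMIs, against 1 UMI), Mmp27, Adamts14 (13.8 CPM against 1.79) and Mmp3 (3.36 CPM against 0.449). Adamtsl1, Mmp9, Adamts9 and Adamts12 were the lowest, at -2.60 to -3.77. Of these, Adamtsl1, Adamts9 and Adamts12 were also among the members that macrophages carried below the other classes, and adipocyte-marker UMIs in the same nuclei were 9.79 per 10000 in C and 3.33 in H. Their part in these ratios was not tested. HHC against CCC gave 4 higher and 2 lower of 24 (14.7% and 7.87%), Mmp14 at 2.33 (0.46 to 5.39), Mmp19, Adamts14 and Mmp27 higher and Adamts6 and Adamtsl4 lower. HCH against CCH gave 8 higher and none lower of 26 (18.4% and 3.49%), with Mmp2 at 17.2 CPM against 2.41 and a ratio of 2.84 (1.87 to 3.99). CCH against C gave 1 higher, Adamts5, and 3 lower of 19 (3.44% and 5.08%). With the depth-scaled gate HH against CC gave 7 and 11 of 26 (27.7% and 13.1%) and HC against CC 3 and 10 of 21 (10.7% and 12.6%), with 32.4 adipocyte-marker UMIs per 10000 in the CC nuclei, 4.39 in HH and 8.34 in HC.

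Timp2 was at 201 CPM in C macrophages and at 273 to 356 in the other 7 libraries with enough nuclei. Adamtsl5, the member macrophages carried above other classes, was at 104 for C, 129 for CCC, 145 for H and 134 for HH, and at 88.4 to 112 for HC, HHC, CCH and HCH. Neither reached 2-fold in macrophages. Across whole libraries H against C was 1.58 for Adamtsl5 and 0.91, also short of 2-fold, for Timp2. Mast cell markers, which summed to 23.9 to 33.6 CPM in the lean libraries, were at 110 to 331 in H and HH, and their part in the whole-library values was not tested.

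In adipocyte-gated nuclei (205 to 2725 per library) Adamts5 differed among the lean libraries as well as between diets. It was at 129 CPM for C, 514 for CC and 1316 for CCC, at 1045 for H, 818 for HH, 679 for HC, 1244.5 for HHC, 807 for CCH and 1467 for HCH. C stood below every other library. H against C was 3.02 (2.89 to 3.14) and CCH against C 2.64 (2.55 to 2.73), but HH against CC was 0.67, HC against CC 0.40, HHC against CCC -0.08 and HCH against CCH 0.86. The 2 calls of Adamts5 thus both rest on C as the control, the library on low-fat chow and the youngest lean one. Adamts15, another proteoglycan-cleaving enzyme, was likewise at 55.9 in C and at 4.90 to 10.3 in the other 8 libraries.

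Adamts12 was at 545 CPM for C, 696 for CC and 247 for CCC, and at 231 for H, 194 for HH, 327 for HC, 179 for HHC, 518 for CCH and 290 for HCH. H, HH and HHC lay below the lean range, and HC, CCH and HCH inside it. Timp2 was at 52.6 to 69.3 in the lean libraries, 107 for H, 110 for HH, 53.7 for HC, 96.9 for HHC, 53.8 for CCH and 149 for HCH. H against C was 1.02 (0.68 to 1.34) and HCH against CCH 1.47 (1.18 to 1.77). No lymphocyte level is given below for Timp2, so the part of free RNA in these adipocyte values was not tested. Timp3 was at 34.1 for C, 150 for CC and 160 for CCC, and at 20.8 for H and 28.8 for HH. Its ratio for HH against CC, -2.38 (-2.81 to -1.97), crosses the prefixes, and C itself lay near the HFD libraries.

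Timp4 within adipocytes was at 48.4, 83.5 and 109 CPM for C, CC and CCC, 51.4 for H, 65.9 for HH, 82.6 for HC, 139 for HHC, 60.4 for CCH and 98.2 for HCH. All 6 ratios lay between -0.34 and 0.70, and none was called. The whole-library ratios of -1.98 and -2.90 for H and HH were not present within the adipocytes, where H against C was 0.09 and HH against CC -0.34. In endothelial nuclei Timp4 was at 53.7 in C and 158 in CCC, and at 56.0 in H and 67.8 in HH. Mmp28 was at 56.7 in C and at 97.5 to 155 in the other libraries. Timp1, at 9.80 for H, 9.41 for HH and 7.12 for HCH, was at 0 to 0.789 in the other 6, the same 3 libraries as in progenitors, on 8 to 17 UMIs each.

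**Figure D5:**
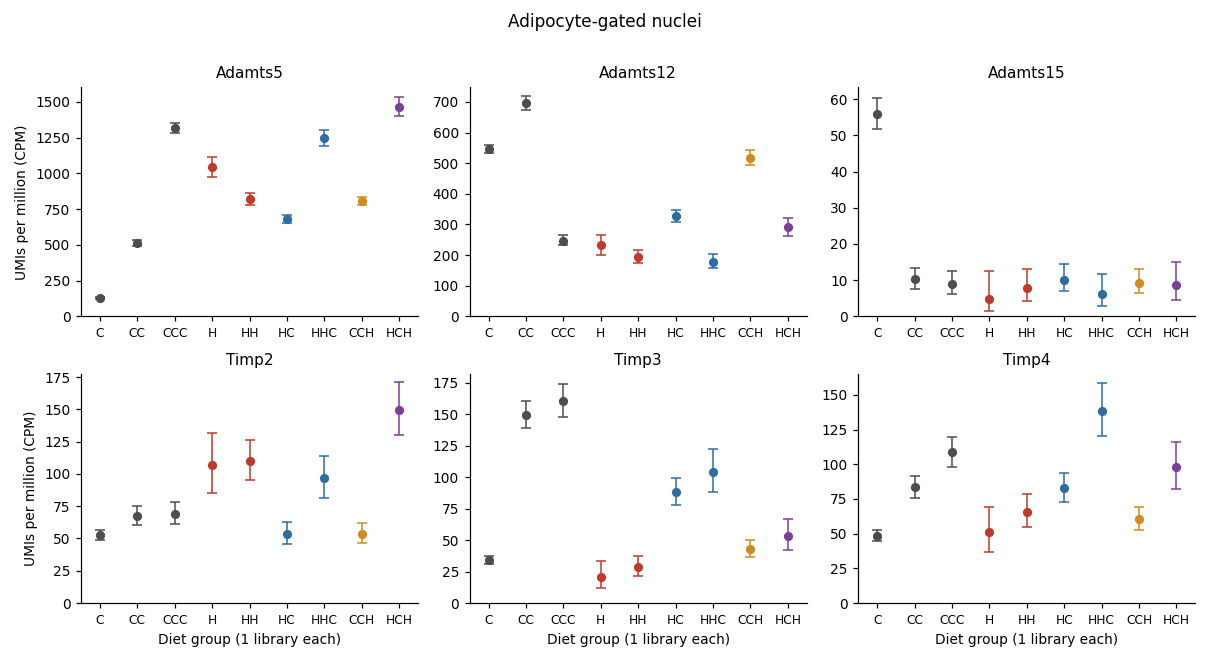
CPM of 6 members in adipocyte-gated nuclei (vertical axes, each from 0) of the 9 libraries (horizontal axes), with exact Poisson 95% intervals. Adamts5 was lowest in C at 129 and Adamts15 highest there at 55.9, whereas Timp4 in H and HH (51.4 and 65.9) lay within the lean range of 48.4 to 109.

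In adipocytes the share of members called lower was above that of all genes in each of the 6 comparisons, whereas the share called higher lay on either side of it. This did not hold with the depth-scaled gate for HC against CC, where 1 of 21 was lower (4.76% against 6.31% of all genes), and CCH against C gave 3 calls in place of 8. H against C gave 7 higher and 4 lower of 26 (25.7% and 7.9% of all genes), HH against CC 4 and 9 of 27 (22.6% and 17.1%), HC against CC 0 and 7 of 26 (3.78% and 16.1%), HHC against CCC 1 and 6 of 26 (6.25% and 12.8%), HCH against CCH 4 and 2 of 20 (12.3% and 5.97%) and CCH against C 3 and 5 of 28 (9.7% and 4.05%). Mmp2 was higher in H than C (16 and 14 UMIs, 4.06, 2.93 to 5.20) and in HCH than CCH (2.53, 1.34 to 3.84), both on few UMIs. Mmp7, Adamtsl2 and Adamts20 were lower in HC than CC, and Mmp7 and Adamts20 in HHC than CCC. Mmp7 and Adamts20 in the adipocytes of CC and CCC did not exceed the background given below, although their calls enter the shares above. CCH against CC gave 0 and 7 of 26 (7.32% and 13.8%). Against C, of its own prefix, HH gave 9 higher and 7 lower of 28, so the balance in HH turned with the control. The shares of all genes for HH against C in adipocytes are not given here. With the depth-scaled gate 2 members in place of 7 were called for HC against CC. Mmp19 was the 1 member higher in HHC, at 53.2 CPM against 22.5 (1.24, 0.77 to 1.70). Adamtsl4 was higher in H than C, at 25.7 against 7.64. In HH against CC the higher members were Timp1 (3.58), Adamts14 (1.39), Mmp23 (1.28) and Adamtsl4 (1.19), and Adamts20 (-4.58), Mmp15 (-3.32) and Mmp7 (-2.97) were the lowest, on 1, 1 and 5 UMIs in HH. Adamts10, at 55.1 to 129, Adamts17, at most 3.57, and Adamts7, at most 1.73, were not among the members called higher in H.

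Mmp7 (matrilysin, an epithelial enzyme) and Adamts20 were nearly absent from the epithelial nuclei of HC. Mmp7 was at 10.9, 16.8 and 26.8 CPM in C, CC and CCC and at 1 UMI (0.0338 CPM) in HC, with HHC at 2.67. In nuclei gated as epithelial with the depth-scaled gate (42 to 360 per library), Mmp7 was at 71.1 to 297 CPM in 8 libraries and at 1.33 (1 UMI) in HC. Adamts20 was at 30.2 to 222 in those 8, with H and HH, low for it in the whole library, at 222 and 182, and had no UMI in HC, and Adamts6 was at 108 to 487 against 10.6. HC held 182 such nuclei and the highest summed epithelial markers, 199 CPM against 16.5 to 158, with all 10 markers detected.

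Timp1 and Mmp19 were highest in different libraries in endothelial nuclei. In endothelial nuclei Timp1 was at 21.2 CPM for H, 18.2 for HH and 14.2 for HCH and at 1.13 to 4.93 in the other libraries with at least 50 nuclei. Mmp19 there was at 7.35 for C, 42.5 for H, 26.4 for HH and 66.8 for HHC, with H against C at 2.53 (1.48 to 3.64). Adamts18, the endothelial member, was at 68.4 in C and 14.8 to 43.0 in the other libraries. In mesothelial nuclei of the depth-scaled gate Timp1 was at 51.8 for H, 26.2 for HH and 19.98 for HCH and at 0 to 6.92 in the other 6. Adamtsl1, their leading member, was at 2519 to 3901 in all 9 libraries, and Adamts3 at 66.8 to 200.

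Free RNA in droplets can give UMIs in nuclei that do not express a gene, so levels in lymphocyte-gated nuclei (T and B cells, 67 to 503 per library with the depth-scaled gate, median 1244 to 2060 UMIs) are given as background. Timp1 was at 15.5 CPM (4.2 to 39.6) there for H, 19.6 (10.7 to 32.9) for HH and 22.3 (14.0 to 33.7) for HCH, with 1 UMI over the other 6 libraries. The Timp1 levels of adipocytes, macrophages and endothelial nuclei in these 3 libraries, and those of HH and HCH progenitors and of FIP and committed nuclei of HCH, did not exceed these upper bounds and are not distinguished from background. Progenitors and mesothelial nuclei of H lay above the bound, whereas mesothelial nuclei of HH and HCH did not and are likewise not distinguished from background. Mmp19 was at 3.36 to 8.16 in lean lymphocytes, 23.2 (8.5 to 50.5) for H, 19.6 (10.7 to 32.9) for HH, 45.2 (24.7 to 75.9) for HC and 67.2 (51.7 to 85.8) for HHC. Macrophages of these 4 libraries lay above the bounds for Mmp19, whereas adipocytes, progenitors, PVM and endothelial nuclei of HC and HHC, adipocytes and endothelial nuclei of H and HH, and PVM of H did not. Mmp27 had 0 to 4 UMIs in the lymphocytes of each library. In H even 0 UMIs would give an upper bound above the Mmp27 level of its macrophages, which is therefore not distinguished from background. No bound in CPM is given for Mmp27 in the other libraries. Its levels in the macrophages of HH, HC and HHC, and in PVM, were therefore not set against background. Mmp2 was at 51.8 for HH and 50.6 for HCH, below the progenitors and above the macrophages of both, so its call in HCH macrophages is not distinguished from background. It was at 19.3 (6.3 to 45.2) for H, and the Mmp2 calls in adipocytes of H and HCH, at 19.6 and 14.9, are likewise not distinguished from background. Mmp3 was at 5.1 (1.6 to 11.8) in HCH lymphocytes, and its levels in HCH progenitors, FIP and committed nuclei, and in H macrophages, did not exceed the bounds, whereas progenitors of H, HH and HHC lay above those of their libraries, 21.6, 27.5 and 13.7. Mmp7 and Adamts20 had upper bounds of 43.9 and 22.4 in the lymphocytes of CC and 69.7 and 22.7 in those of CCC, which their levels in adipocytes and progenitors of these controls did not exceed, so their lower values in those classes are not distinguished from background. Adamts14 was at 54.2 in the lymphocytes of H and 35.3 in its progenitors, so lymphocytes give no background level for it.

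The 20 companion genes of the system, fixed as a list of activators, other inhibitors, related proteases, clearance proteins and a substrate, were counted in the same way. Of 19 tested in the class comparison, 12 (63.2%) were higher and 1 (5.26%) lower in progenitors, against 10.2% and 6.04% of all genes, led by the versican gene Vcan (4.18), the serine protease Fap (3.72) and the sheddase Adam12 (3.66). Macrophages had 2 higher, the urokinase receptor gene Plaur (1.27) and the clearance receptor gene Lrp1 (1.00, at the 2-fold limit), and 11 lower, shares of 10.5% and 57.9% against 14.2% and 19.1%. The higher ones were 1 in place of 2 with DESeq2, with its size factors, with the depth-scaled gate and without H, HH, HC or HHC. Across whole libraries H against C gave 5 higher and 2 lower of 19, shares of 26.3% and 10.5% near the 27.6% and 13.1% of all genes, with Plaur at 2.27, Lrp1 at 1.52 and Fap at 1.46 higher and the proprotein convertases Pcsk6 at -1.31 and Pcsk5 at -1.29 lower. Plaur was called higher in the whole libraries of HH (1.97), HC (1.71), HHC (1.90) and HCH (1.15) against their controls as well. Within macrophage-gated nuclei Plaur was called for H (1.78) and HH (1.40) against C. There HHC against CCC was 0.51 (-0.17 to 1.28) and HCH against CCH 0.69 (0.36 to 1.03), both short of 2-fold. In progenitors of H, Thbs2, whose protein binds Mmp2, was at 31.1 CPM against 6.1 in C, and Adam12 at 1680 against 543.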

How the data were processed

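Single-nucleus libraries of epididymal adipose tissue, 1 per diet group, were analysed from the deposited matrices. These hold counts: raw UMI counts per gene and barcode, which the authors made with Cell Ranger 6.1.2 (intronic reads included, mouse reference on GRCm38, per the methods of the study). The authors' later steps, which per the labels used Seurat 4.1.0, are not in these counts. Intronic reads give long genes more UMIs, so levels were not compared between genes.

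Nuclei with 500 to 3000 genes and at most 40000 UMIs were kept. Doublets were removed with Scrublet (scanpy 1.11.5) at its automatic threshold in 5 libraries. In CC, CCC, HC and HHC that threshold marked under 0.5%, and the highest scores were removed at an expected rate of 0.8% per 1000 nuclei. Totals exclude mitochondrial genes and Malat1. Classes were gated by marker lists as described in the report. A gate scaled for depth, and a minimum of 50 nuclei for printing a class level, were chosen after seeing the data. Exceptions to this minimum are the epithelial nuclei of HH (42) and the mural nuclei of H (49) with the depth-scaled gate. For kinds of macrophages and progenitors the minimum was 20 nuclei. The members and all lists were chosen with earlier results of these data known.

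UMIs were summed per library and class. Levels carry exact Poisson 95% intervals and ratios exact conditional ones, with a floor of 3 counts where a library had none. Library totals of 22599619 to 66615262 UMIs set the precision. With 1 library per group no diet difference was tested. Classes were compared over libraries with edgeR 4.0.16 (quasi-likelihood, TMM, library block, Benjamini-Hochberg over all genes tested, called at adjusted p under 0.05 and 2-fold), a fit also tested on simulated data. DESeq2 1.42.0 was an alternative. Sums of 1 library are not separate animals, and each library is a different diet group. The spread behind these p-values thus mixes differences between pools with those of diet, age and prefix. Every member was counted, those with at least 500 UMIs were named with values, and up to 4 called members per direction were named in each main comparison. Promoters came from RefSeq (GRCm38.p6). Where no window for a member was found, none is shown. The values of 1 companion gene are not reported here.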

Additional observations from a re-analysis of the deposited data

Results flagged for a closer look

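Adamts4, an aggrecan-cleaving enzyme with 351 UMIs in all, went opposite ways in the comparisons of HFD with chow. Across whole libraries its log2 ratio was 1.70 for H against C and -1.17 for HH against CC. Against C, of its own prefix, HH was at 0.42 (-0.41 to 1.26), so the opposite direction rests on CC as the control. The CC value holds 46 UMIs, of which 9 came from 1 barcode, and the H value holds 62. The difference between the comparisons was not tested, since each group had 1 library.

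Adamts8, another low-count proteoglycan-cleaving enzyme, with 212 UMIs in all, went opposite ways after weight loss. Its ratio was 1.08 for HC against CC and -1.68 for HHC against CCC, and this difference was not tested either.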

How the results depend on the processing

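No paired analysis was possible because every group had 1 library, which concerns the diet comparisons, since the tests between classes hold the library as a block. Of 320 counts of members compared with their value under an alternative, 282 stayed within 1.5 times. Of 664 gene ratios 8 changed sign and 64 others left the counting interval of the main value, and of 1398 class tests of a gene 32 lost the call and 1 changed sign. The cause was not tested except where an alternative removes genes or libraries by construction. Members past 2-fold in adipocytes were 8 for HH against CC and 3 for HCH against CCH with at least 50 UMIs, and 2 for HC against CC and 3 for CCH against C with the depth-scaled gate. In progenitors they were 7 for HC against CC and 5 for CCH against C with no upper limit on genes, and 9 for CCH against CC. HHC against CCC gave 5 with a gate of at least 3 markers, 5 with at least 50 UMIs and 3 with the depth-scaled gate. HCH against CCH gave 4 in macrophages with at least 50 UMIs, and CCH against CC gave 14 across whole libraries.

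Without a filter on low counts, members higher were 8 in adipocytes, 4 in macrophages, 11 in endothelial nuclei, 12 in mural nuclei and 4 in LAM, and members lower were 4 in LAM and 5 in FIP. With the depth-scaled gate 2 were higher in macrophages, 12 in mural and 11 in mesothelial nuclei, and 19 were lower in adipocytes, 0 in mural nuclei and 0 in LAM. DESeq2 and its size factors in edgeR each gave 1 lower in mural nuclei. Leaving out 1 library gave 1 to 3 members higher in macrophages (3 without CC, 2 without CCC, HHC, CCH or HCH), 1 to 4 lower in mural nuclei (1 without C, 2 without HC, HH or H) and 1 to 3 lower in LAM (1 without HH or H). Among the ratios compared, the sign changed in adipocytes for Adamtsl5 (0.093) and Mmp7 (0.34) in HCH against CCH with no upper limit on genes. It also changed there for Mmp7 (0.70) with the depth-scaled gate and for Mmp2 (-1.14) in CCH against CC. The others were Mmp3 in progenitors (-0.76) for CCH against C with the depth-scaled gate and Mmp28 (-0.23) for CCH against C in kept nuclei. Without the 1 CCH nucleus with the most Mmp3 UMIs, left out after the data were seen, Mmp3 changed sign in progenitors for CCH against C (-0.036) and in committed nuclei for HCH against CCH (0.13). The mural test of Timp1 gave 0.0405 with the depth-scaled gate. Few nuclei of CC passed the main gate, which limits the comparisons of gated nuclei that use it.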

Other observations

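Mural-gated nuclei of C and HC stood apart from those of the other libraries. With the depth-scaled gate Adamtsl1, an ADAMTS-like protein without protease activity, was at 2631 CPM in C and 3364 in HC and at 84.9 to 508 in the other 7 libraries. Mmp16 was at 169 and 183 in these libraries and at 3.23 to 13.03 in the others. The mural markers summed to 270 CPM in C and 1024 in HC over the whole library, and to 85.4 to 606 in the others.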
